A study of Mus musculus with 8 samples.

Results

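Glycolysis, the lactate shuttle and the handling of pyruvate were examined in the retina of Lpcat1 knockout (KO) mice, which lack an acyltransferase that remakes phosphatidylcholine from its lyso form. The set held 40 genes, listed by symbol: the glucose transporters, every step from hexokinase to pyruvate, lactate dehydrogenase, the lactate transporters, pyruvate dehydrogenase with its regulators, and 3 enzymes of the pentose phosphate pathway. All 40 genes were found on the array, through 60 of its 55681 non-control probes, and 39 genes with 58 probes were tested, among 14940 tested genes in all. Whole retinas of 2-week-old mice were compared between 4 wildtype (WT) and 4 KO samples. The labels give C57BL/6 as the strain of both genotypes. The study calls the KO global, and according to its methods the line, on C57BL6/N, was crossed to C57BL6/J to remove the rd8 mutation of Crb1, and no mouse used was homozygous for rd8. The labels do not say that the samples came from separate animals, so a p-value measures the spread between these samples.

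Vertebrate photoreceptors convert most of their glucose to lactate even when oxygen is present. Glucose enters the retina through GLUT1, and hexokinase 2 is the form of the first enzyme typical of photoreceptors, beside the widespread hexokinase 1. The lactate that is released leaves through monocarboxylate transporters carried to the membrane by basigin, and can be burned by Mueller glia and the pigment epithelium. Pyruvate dehydrogenase decides how much pyruvate enters the mitochondria: kinases (the Pdk genes) switch it off and phosphatases such as Pdp1 switch it on. Rods also release a truncated thioredoxin-like protein, made from Nxnl1, that binds basigin on cones and raises their glucose uptake.

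A gene was called when limma gave an adjusted p under 0.05 over all 33975 tested probes, together with a fold change over 1.2. Of the 39 tested members, 1 gene was called (2.56%), against 593 of the 14940 tested genes (3.97%), so the share of members called was no larger than in all genes. The called member was hexokinase 2 (Hk2), which rose in KO. Over probes, 1 of 58 members was called (1.72%), against 2.92% of all tested probes. Higher calls made up 1.39% and lower calls 1.54% of all tested probes, 471 and 522 probes, and with cyclic loess scaling the split was 630 and 341. The adjusted p alone was under 0.05 for 4 member probes (6.90%, against 5.5% of all probes): Hk2 and Pdp1 with higher and Eno1 and Pfkfb2 with lower signal in KO. With 1 array left out the adjusted p was over 0.05 for Pdp1 in 8 of 8 runs and for the other 3 genes in 7 of 8 (all but the run without KO 1), and it was over 0.05 for all 4 with the replicate number as a block. Of all tested probes, 1870 had an adjusted p under 0.05 with all arrays, from 411 (without WT 2) to 1813 (without KO 1) with 1 array left out, and 397 with the block. The values of the genotypes did not overlap for 15 of the 58 member probes (25.9%, against 17.5% of all tested probes). KO lay above WT for 8 of them (6.05% of all tested probes did so) and below WT for 7 (11.4%). The differences of the 39 genes ran from -0.25 to 0.35 on the log2 scale with a median of 0.01, and 21 were positive and 18 negative. Over all tested probes the median was -0.04, and 62.0% were lower in KO.

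**Figure D1:**
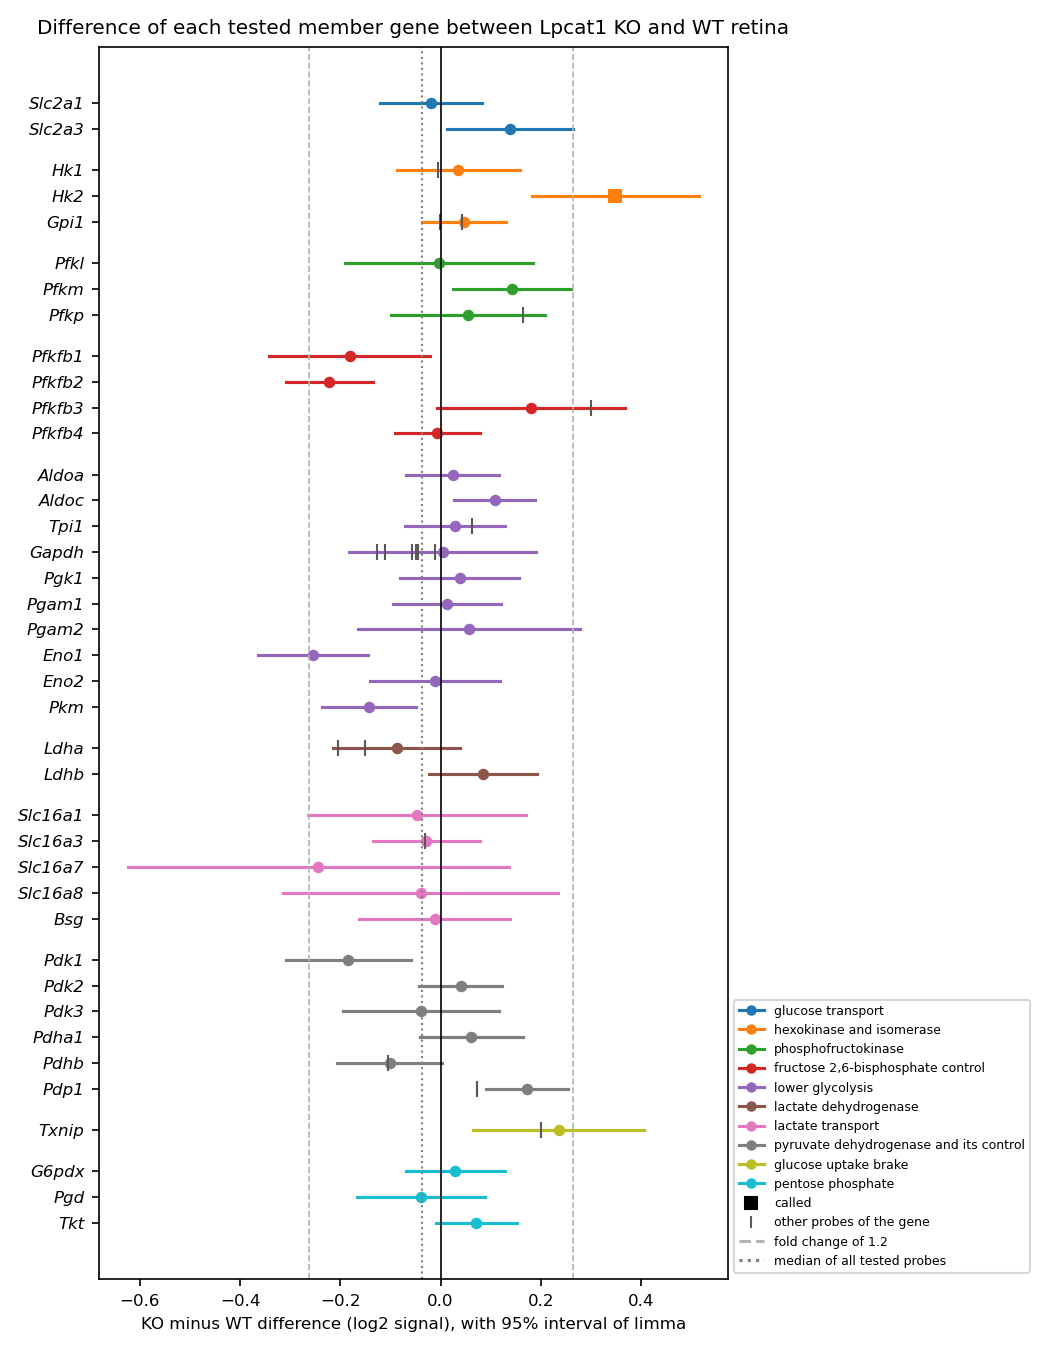
Difference between KO and WT on the log2 scale for each of the 39 tested member genes, grouped and coloured by role. Points are the brightest probe of a gene with its 95% interval from limma, ticks are its other probes, dashed lines mark a fold change of 1.2 and the dotted line the median of all tested probes. Hk2 at 0.35 is the only called gene (square), and Eno1 at -0.25 lies just inside the fold limit on the other side.

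The upstream sequences of Hk2, Pfkfb2 and Eno1 are shown because these genes had the largest differences among the members whose adjusted p was under 0.05. Each run holds the 250 bases before an annotated transcription start, read on the strand of the gene from RefSeq windows of GRCm38.p6. Hk2 lies at chr6:82774455-82774704 (minus strand), Pfkfb2 at chr1:130715822-130716071 (minus strand) and Eno1 at chr4:150236947-150237196 (plus strand). Pfkfb2 and Eno1 each have 3 windows, and the one richest in G and C is shown. Capitals mark matches, on either strand, to any of 5 motifs: ACGTG and GCGTG, both forms of the hypoxia element core, CACGTG, the E-box, CACGAG, a variant found in carbohydrate response elements, and TAATCC, the core of sites for the photoreceptor factor Crx.
Hk2: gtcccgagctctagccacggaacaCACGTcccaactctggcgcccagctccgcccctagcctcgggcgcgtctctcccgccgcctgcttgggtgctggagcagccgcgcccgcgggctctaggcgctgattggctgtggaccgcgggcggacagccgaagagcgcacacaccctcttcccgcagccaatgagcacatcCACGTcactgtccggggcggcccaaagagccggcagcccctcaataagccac
Pfkfb2: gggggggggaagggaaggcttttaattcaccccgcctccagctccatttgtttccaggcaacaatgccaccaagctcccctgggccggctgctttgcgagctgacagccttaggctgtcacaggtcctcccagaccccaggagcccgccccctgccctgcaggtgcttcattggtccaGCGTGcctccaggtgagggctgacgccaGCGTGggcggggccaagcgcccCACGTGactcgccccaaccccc
Eno1: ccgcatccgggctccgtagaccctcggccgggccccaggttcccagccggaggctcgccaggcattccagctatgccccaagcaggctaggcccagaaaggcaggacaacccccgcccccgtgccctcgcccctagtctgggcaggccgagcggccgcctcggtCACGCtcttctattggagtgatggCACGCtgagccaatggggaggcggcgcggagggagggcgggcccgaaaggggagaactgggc

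In Hk2, ACGTG began 226 and 52 bases before the start, both on the other strand. In Pfkfb2, GCGTG began 72 and 44 bases before the start, and the E-box 22 bases before it, which holds ACGTG on both strands by construction. In Eno1, GCGTG began 86 and 62 bases before the start on the other strand. Of the 40 members, 36 matched 56 such windows by symbol. ACGTG stood in 33.9% of the member windows and 16.6% of all 32851 windows, and GCGTG in 53.6% and 28.2%. As counts, the E-box stood in 6 of the 56 member windows and 1978 of all windows, CACGAG in 6 and 1763, and TAATCC in 5 and 2054, each a larger share of the member windows than of all windows. Windows of 1 gene overlap, the shares were not tested, and a match describes letters only. The base composition of the member windows was not compared with that of all windows.

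At the entry of glucose, neither transporter was called. Slc2a1, which encodes GLUT1, had log2 levels of 3.86, 4.01, 3.99 and 4.00 in the WT arrays 1 to 4 and 3.94, 3.94, 3.97 and 3.93 in the KO arrays. A level here is the log2 signal of a probe with the 75th percentile signal of its array set to 0, and it can be compared between arrays but not between probes. The groups overlapped, with a difference of -0.02 (95% interval -0.12 to 0.08), whose sign turned under other scalings. Slc2a3, encoding the neuronal transporter GLUT3, was at 2.73, 2.80, 2.80 and 2.84 in WT and 2.80, 2.99, 2.92 and 3.01 in KO. Its difference was 0.14 (interval 0.01 to 0.26, limma adjusted p = 0.174), and KO 1 lay within the WT values. With normexp background correction it was 0.065 (limma adjusted p = 0.596). Txnip, an arrestin-fold protein that withdraws glucose transporters from the membrane, ranged from -1.12 to -0.93 in WT and from -0.91 to -0.63 in KO. The groups did not overlap, but the adjusted p of limma was 0.101 for a difference of 0.24, and a second probe differed by 0.20.

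Hk2 was the member with the largest difference. Its levels were 0.28, 0.42, 0.32 and 0.40 in WT and 0.49, 0.78, 0.76 and 0.77 in KO. All KO arrays lay above all WT arrays, and KO 1 was the lowest of the KO arrays by a wide gap. The means were 0.35 ± 0.07 in WT and 0.70 ± 0.14 in KO (SD, n = 4 each), so KO reached 127% of the WT signal. The difference was 0.35 (SE 0.07, 95% interval 0.18 to 0.52, limma adjusted p = 0.0364). Without KO 1 the difference was 0.42 and the adjusted p 0.0100. Leaving out any 1 of the other 7 arrays kept the direction (0.32 to 0.37) and ended the call, with adjusted p from 0.0707 to 0.0968. With all arrays, the call also ended with a median shift (limma adjusted p = 0.0809), without the filter on dim probes (0.102), with the methods' t-test after adjustment (0.0555) and with the replicate number as a block (0.0534). Hk1 was at 6.34, 6.37, 6.41 and 6.41 in WT and 6.42, 6.33, 6.36 and 6.55 in KO, which overlapped, and its difference was 0.04 (interval -0.09 to 0.16), or 0.11 with quantile normalization or cyclic loess scaling. The isomerase Gpi1, which acts on the hexokinase product, ranged from 7.31 to 7.37 in WT and from 7.37 to 7.45 in KO, without overlap. Its difference was 0.05 (limma adjusted p = 0.489), and its other probes differed by -0.00 and 0.04. It was 0.14 with quantile normalization and 0.13 with cyclic loess scaling.

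Phosphofructokinase commits sugar to glycolysis, and its 3 subunit genes were not called. Pfkm, the muscle form, differed by 0.14 (limma adjusted p = 0.139), Pfkl, the liver form, by -0.00, and Pfkp, the platelet form, by 0.05. Pfkp was at 0.10 with quantile normalization or cyclic loess scaling, and from 0.01 to 0.10 with 1 array left out. A dimmer Pfkp probe lay higher in KO without overlap, at 0.16 (limma adjusted p = 0.0798). The Pfkfb genes encode enzymes that make and remove fructose 2,6-bisphosphate, the activator of phosphofructokinase. Pfkfb2 was at 2.72, 2.71, 2.76 and 2.77 in WT and 2.57, 2.49, 2.48 and 2.52 in KO. Every KO array was below every WT array, with little spread inside either genotype. KO was at 85.7% of WT, a difference of -0.22 (SE 0.04, limma adjusted p = 0.0214) that missed the fold limit. The adjusted p was 0.0612 with a median shift, 0.0805 without the filter on dim probes and 0.0632 with the replicate block, and up to 0.0678 with 1 array left out. Pfkfb3, the form with the strongest bias towards synthesis, was at 1.06, 1.16, 1.17 and 1.35 in WT and 1.19, 1.36, 1.44 and 1.47 in KO. These overlapped through WT 4 and KO 1, and the difference was 0.18 (limma adjusted p = 0.225). A second, dim Pfkfb3 probe did not overlap and differed by 0.30 (limma adjusted p = 0.139). Pfkfb1 differed by -0.18 (limma adjusted p = 0.163, and by -0.12 with normexp) and Pfkfb4 by -0.01.

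The 10 genes of the steps from aldolase to pyruvate kinase had 7 positive and 3 negative differences, and none was called (0 of 10). Of their 17 probes, 5 had an unadjusted p under 0.05, as did 23.8% of all tested probes. Eno1, encoding the widespread enolase, was at 8.16, 8.12, 8.28 and 8.15 in WT and 7.96, 7.86, 7.93 and 7.94 in KO. The groups were apart on all arrays. KO was at 83.8% of WT, a difference of -0.25 (SE 0.05, limma adjusted p = 0.0266), and the fold of 1.19 was just short of the limit of 1.2. Without KO 1 it passed the limit, at -0.27 (limma adjusted p = 0.0401), while with quantile normalization it was -0.14 (limma adjusted p = 0.150) and with cyclic loess scaling -0.16 (limma adjusted p = 0.0876). The adjusted p was 0.0889 without the filter on dim probes, 0.0598 with the replicate block and up to 0.0775 with 1 array left out. The neuronal enolase Eno2 was at 5.92, 5.99, 6.13 and 6.01 in WT and 5.94, 5.96, 6.04 and 6.08 in KO, a difference of -0.01 with full overlap and a sign that turned under other scalings. Pkm, pyruvate kinase, ranged from 7.17 to 7.24 in WT and from 7.01 to 7.13 in KO without overlap (difference -0.14, limma adjusted p = 0.0818). Its difference was -0.06 with cyclic loess scaling and -0.04 with quantile normalization, and the files do not tell which spliced form of Pkm the probe reads.

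Aldoc, the aldolase typical of brain, was at 7.25, 7.25, 7.21 and 7.24 in WT and 7.31, 7.39, 7.35 and 7.32 in KO. The groups did not overlap, and the difference of 0.11 had a limma adjusted p of 0.109. It was 0.22 with quantile normalization (limma adjusted p = 0.0337) and 0.20 with cyclic loess scaling (limma adjusted p = 0.0284). Aldoa, the aldolase of most tissues, was at 8.72, 8.77, 8.82 and 8.74 in WT and 8.76, 8.74, 8.83 and 8.82 in KO, with a difference of 0.02. The differences of other genes of these steps were 0.03 for Tpi1, 0.04 for Pgk1, 0.01 for Pgam1 and 0.06 for its muscle form Pgam2. They moved with the scaling: Tpi1, Pgk1 and Pgam1 were at 0.11, 0.13 and 0.13 with quantile normalization, and Aldoa was at 0.13 (limma adjusted p = 0.0745) and Gapdh at 0.11 with cyclic loess. With 1 array left out, Pgam2 ran from 0.01 to 0.13. Gapdh, used as the reference gene in the study's quantitative PCR, differed by 0.00 at its brightest probe, with a wide interval of -0.18 to 0.19. Its 6 dimmer probes ran from -0.13 to -0.01, and the lowest of them did not overlap between genotypes (limma adjusted p = 0.183). Several glycolytic genes, Gapdh, Eno1, Ldha and Aldoa among them, have near-identical copies elsewhere in the genome, and cross-hybridisation was not tested.

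**Figure D2:**
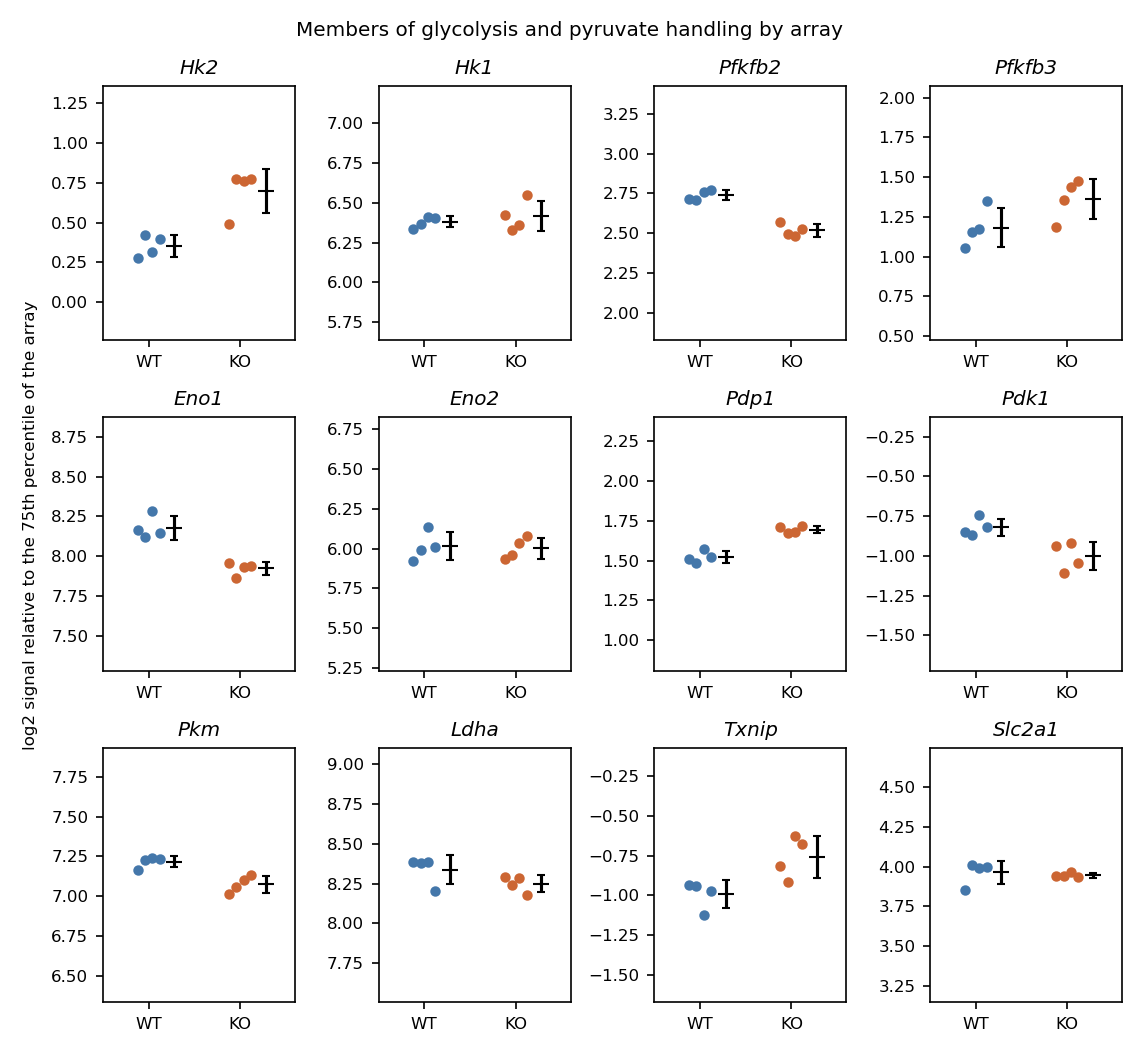
Level of 12 member genes on each array, in log2 units with each array's 75th percentile at 0, with the mean and SD of 4 arrays beside the points. All panels span the same height, and Hk2 (WT at most 0.42, KO at least 0.49), Pfkfb2, Eno1, Pdp1, Pdk1, Pkm and Txnip show no overlap between the genotypes.

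Lactate dehydrogenase interconverts pyruvate and lactate, and neither subunit gene was called. Ldha was at 8.39, 8.38, 8.38 and 8.20 in WT and 8.29, 8.24, 8.29 and 8.18 in KO. The groups overlapped because WT 4 was low. The difference was -0.09 (interval -0.21 to 0.04), with a sign that turned under other scalings, and the 2 dimmer probes differed by -0.15 and -0.20 (limma adjusted p = 0.163 and 0.137). Ldhb, the heart form, was at 4.74, 4.78, 4.80 and 4.88 in WT and 4.91, 4.94, 4.80 and 4.87 in KO, a difference of 0.08 (interval -0.02 to 0.19), or 0.15 with quantile normalization (0.14 with cyclic loess).

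The 5 genes of lactate transport had negative differences in all 5 cases, none was called, and none of their 6 probes had an unadjusted p under 0.05 (0 of 6, against 23.8% of all tested probes). Slc16a1, the widespread transporter MCT1, was at -2.63, -2.70, -2.48 and -2.93 in WT and -2.62, -2.80, -2.81 and -2.71 in KO. Its difference was -0.05 (interval -0.26 to 0.17). Slc16a7, which encodes the high-affinity transporter MCT2, was at -1.96, -1.96, -1.71 and -2.38 in WT and -2.59, -2.17, -2.27 and -1.96 in KO. Its difference of -0.24 had the widest interval of the 39 genes, from -0.62 to 0.14. It was -0.13 without KO 1, -0.15 without WT 3 and -0.37 without WT 4. Slc16a3, encoding MCT4, differed by -0.03 at both probes, and Slc16a8, encoding MCT3 of the pigment epithelium, by -0.04. Bsg, the basigin that carries MCT1, MCT3 and MCT4 to the membrane, differed by -0.01 (interval -0.16 to 0.14). The signs of Slc16a3 and Bsg turned under other scalings.

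In the control of pyruvate dehydrogenase, the phosphatase that activates the enzyme and 1 of the kinases that silence it had differences of opposite sign, though neither was called. Pdp1 ranged from 1.49 to 1.57 in WT and from 1.67 to 1.72 in KO, without overlap. Its difference was 0.17 (SE 0.04, limma adjusted p = 0.0362), under the fold limit. The adjusted p was 0.0810 with a median shift, 0.112 without the filter on dim probes, 0.0779 with the replicate block and from 0.0586 to 0.106 with 1 array left out, while 2 dimmer probes of the gene each differed by 0.07 (limma adjusted p = 0.329 and 0.653). Pdk1 ranged from -0.87 to -0.74 in WT and from -1.11 to -0.92 in KO, also without overlap (difference -0.18, limma adjusted p = 0.0857). Pdk2 differed by 0.04 and Pdk3 by -0.04. Pdk4 was not tested, since it was well above background on 2 WT arrays and 1 KO array. Of the enzyme's own subunits, Pdha1 differed by 0.06 and Pdhb by -0.10, with -0.11 at its second probe and, at the first, -0.05 with quantile normalization or cyclic loess scaling. In the pentose phosphate pathway, which makes NADPH and ribose, G6pdx, its first enzyme, differed by 0.03, Pgd by -0.04 and Tkt by 0.07. Tkt, a transketolase, ranged from 5.39 to 5.45 in WT and from 5.47 to 5.53 in KO, without overlap, and its limma adjusted p was 0.264. Its difference was 0.15 with quantile normalization (limma adjusted p = 0.0468, under the fold limit), 0.14 with cyclic loess and 0.01 with normexp.

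The isoforms were then set against each other in 7 pairs, the first of each pair being tied more closely to photoreceptors or neurons, or to the main route of glucose and lactate in the retina. The log2 ratio of both signals within an array does not depend on the scaling by 1 factor, and a change of it shows unequal change, not which gene moved. The ratio of Pfkfb2 to Pfkfb3 was 1.66, 1.55, 1.59 and 1.43 in WT and 1.38, 1.14, 1.05 and 1.05 in KO. KO lay below WT on every array, by 0.40 on average (change -0.40, SE 0.09). The ratio of Hk2 to Hk1 was -6.06, -5.95, -6.10 and -6.01 in WT and -5.93, -5.55, -5.60 and -5.78 in KO, a change of 0.31 (SE 0.09) without overlap. The ratio of Eno2 to Eno1 was -2.24, -2.13, -2.15 and -2.14 in WT and -2.02, -1.90, -1.89 and -1.86 in KO, a change of 0.24 (SE 0.04) without overlap. Each of these 3 had p = 0.0286 in a two-sided exact permutation test, the smallest that 4 against 4 arrays allow, and 0.0667 after Benjamini-Hochberg adjustment over the 7 pairs. None of the 7 pairs passed the adjustment (0 pairs, and 3 at an unadjusted p under 0.05). With this smallest p, at least 5 of the 7 pairs would have to separate fully for any to pass, so the adjustment says little at this number of arrays.

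The other pairs overlapped between genotypes. The ratio of Slc2a1 to Slc2a3 changed by -0.16 (SE 0.05, exact permutation p = 0.0571, adjusted 0.100) and that of Ldha to Ldhb by -0.17 (SE 0.08, exact permutation p = 0.0857, adjusted 0.120). They were -0.10 with normexp and -0.08 with quantile normalization, in that order. Aldoc to Aldoa changed by 0.08 (exact permutation p = 0.114, adjusted 0.133). This change was larger with quantile normalization, where Aldoc differed by 0.22 and Aldoa by 0.08, and smaller without KO 2 or without WT 3. Slc16a1 to Slc16a7 changed by 0.20 (exact permutation p = 0.257), and KO 1 stood far above the other arrays in it: without KO 1 the change was 0.04. The change was above 0 for the pairs led by Hk2, Eno2, Aldoc and Slc16a1 and below 0 for those led by Pfkfb2, Ldha and Slc2a1.

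**Figure D3:**
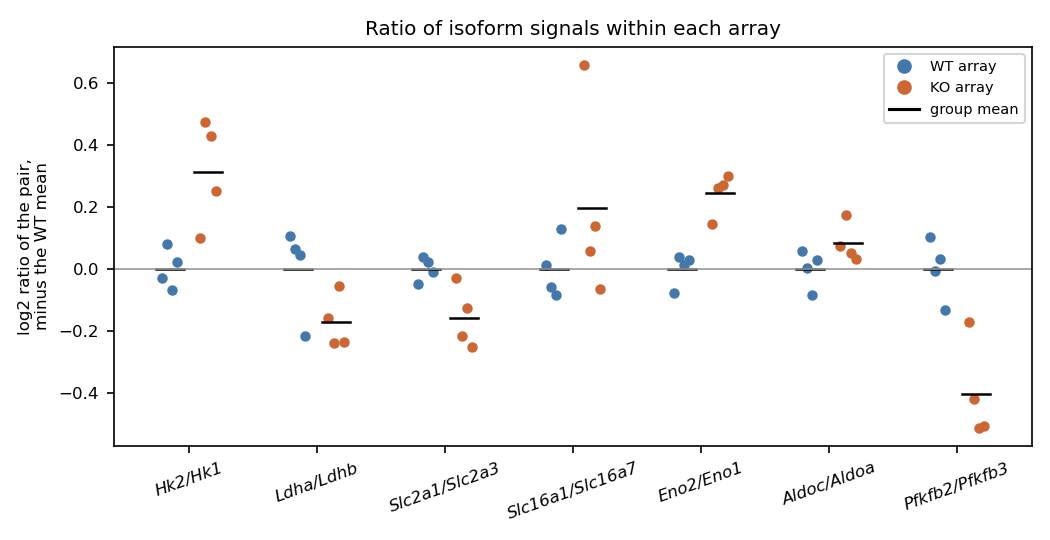
Log2 ratio of the signals of 7 isoform pairs on each array, drawn relative to the mean of the 4 WT arrays of the pair, with lines at the group means. Hk2/Hk1 (0.31) and Eno2/Eno1 (0.24) lie above WT and Pfkfb2/Pfkfb3 (-0.40) below it on all 4 KO arrays, while the other 4 pairs overlap.

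Lists of neighbouring genes placed these members in the wider pathway, and their counts of called genes stand beside the 3.97% called of all tested genes. Among other isoforms of glycolysis, 14 of 20 genes were tested, 1 fell and none rose, with a median difference of -0.09. The gene that fell was Slc2a4, the insulin-responsive transporter GLUT4, at -1.02, -1.05, -1.05 and -1.08 in WT and -1.28, -1.36, -1.34 and -1.36 in KO. The genotypes were well apart, by -0.28 (SE 0.04, limma adjusted p = 0.00986). In gluconeogenesis and glycogen turnover, 1 of 14 tested genes rose and none fell (median 0.04). This was Pygl, the liver form of glycogen phosphorylase, which releases glucose units from glycogen. Its levels were 1.29, 1.29, 1.38 and 1.39 in WT and 1.56, 1.69, 1.74 and 1.81 in KO, a difference of 0.36 (SE 0.06, limma adjusted p = 0.0204) without overlap. The list summed to 67.4 to 67.8 in WT and 68.6 to 71.2 in KO.

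No gene was called among 8 tested genes of pyruvate entry and the dehydrogenase complex (median 0.02), 18 of the citric acid cycle and malate shuttle (median -0.04) or 7 further genes of the pentose phosphate pathway (median -0.06). At an unadjusted p under 0.05, these lists had 1 of 10, 4 of 20 and 3 of 7 tested probes, again beside 23.8% of all tested probes. The further pentose phosphate genes summed to 54.6 to 56.8 in WT and 50.8 to 52.7 in KO. Pathway lists whose sums are not given overlapped in sum. Among the hypoxia-inducible factors and genes they are known to induce, 2 of 19 tested genes rose, none fell, and the median was 0.00. Bhlhe40, a transcriptional repressor, differed by 0.30 (limma adjusted p = 0.0210), with levels of -1.18, -1.16, -1.18 and -1.12 in WT and -0.99, -0.85, -0.77 and -0.82 in KO. Bnip3, a receptor for the removal of mitochondria, was called through the dimmest of its 3 probes, at 0.27 (limma adjusted p = 0.0341), and its brightest probe differed by 0.15 (limma adjusted p = 0.127).

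The list of glucose-sensing factors and rod-derived cone viability factors had 1 gene called higher and 2 lower of 12 tested (median -0.07). Of all tested genes, 3.97% were called. All these lists were chosen with earlier results of these data known, so such counts describe the lists and do not test them. Nxnl1 was at 3.62, 3.58, 3.59 and 3.68 in WT and 3.41, 3.41, 3.30 and 3.27 in KO. It fell by 0.27 (limma adjusted p = 0.0242), and by 0.33 at a second probe, to 83.1% and 79.8% of WT. Nxnl2, its paralogue, was at 4.91, 5.13, 4.97 and 5.02 in WT and 4.61, 4.56, 4.68 and 4.49 in KO. It fell by 0.42 (SE 0.06, limma adjusted p = 0.0144) to 74.6% of WT, again with no overlap. Arrdc2, an arrestin-domain relative of Txnip, was at 1.07, 1.00, 1.21 and 1.01 in WT and 1.55, 2.10, 2.03 and 2.38 in KO. KO 1 was again the KO array nearest to WT. KO reached 192% of WT, a difference of 0.94 (SE 0.16, limma adjusted p = 0.0204), and a second probe differed by 0.93.

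Of the 7 called genes of these lists, Nxnl2 and Slc2a4 kept their call whichever array was left out. With 1 array left out the others kept it in 3 of 8 runs (Arrdc2 and Pygl), 2 of 8 (Bhlhe40) or 1 of 8 (Bnip3 and the brighter Nxnl1 probe), with the same direction in all 8 and adjusted p of at most 0.0924. Over 12 other settings with all arrays, Slc2a4 kept its call in 10 and lost it with normexp (-0.22) and cyclic loess (-0.26), where the fold was under the limit. The brighter Nxnl1 probe kept its call in 5 of the 12, Bhlhe40 and Bnip3 in 8, Arrdc2 and Nxnl2 in 10 and Pygl in 11.

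**Figure D4:**
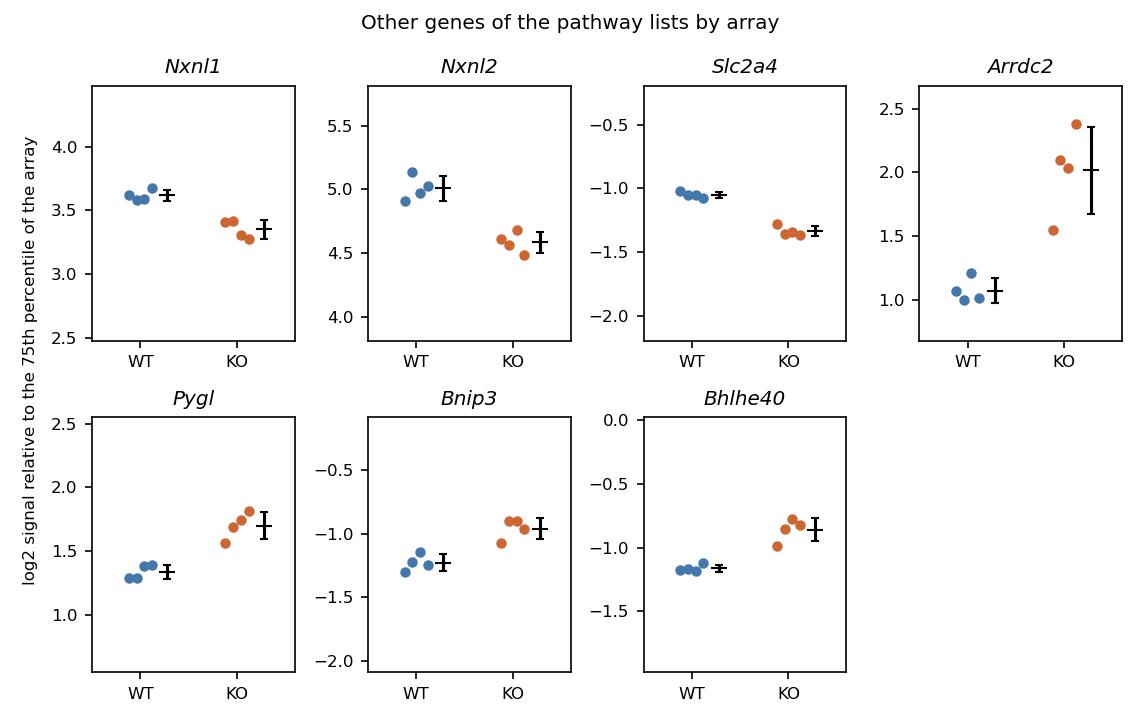
Level of the 7 called genes of the pathway lists on each array, in log2 units with each array's 75th percentile at 0, with the mean and SD of 4 arrays beside the points. All panels span the same height, and the brightest called probe of each gene is drawn. Nxnl1, Nxnl2 and Slc2a4 lie lower and Arrdc2, Pygl, Bnip3 and Bhlhe40 higher in all 4 KO arrays than in any WT array.

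Markers of several cell types differed in sum between the genotypes, and those of others overlapped in sum. Counts of called markers stand beside the 3.97% called of all tested genes. In units of the array's 75th percentile signal, the summed signal of 17 rod markers was 3226 to 3341 in WT and 2723 to 2908 in KO, with 16 of 17 negative and 5 called lower. The 12 cone markers summed to 283 to 289 in WT and 314 to 327 in KO (3 called higher), and the 12 Mueller glia markers to 386 to 404 and 453 to 463 (3 called higher). Microglia markers overlapped in sum (35.3 to 42.7 and 39.9 to 45.8), and 7 of 15 were called higher. Gene by gene, all 15 had positive differences (median 0.34). Of these, 13 lay above WT without overlap, as did 6.05% of all tested probes. Markers of the pigment epithelium overlapped in sum (49.5 to 53.5 and 52.1 to 57.5), with 0 of 10 tested genes called by limma. Of their probes, 3 of 11 had an unadjusted p under 0.05, near the 23.8% of all tested probes. Markers of astrocytes (5.30 to 6.48 and 6.54 to 6.76), of amacrine, horizontal and ganglion cells (183 to 188 and 193 to 200) and of lens (8.95 to 9.64 and 10.4 to 11.4) were above WT in sum on all KO arrays, with 1 of their genes called, the lens and glial chaperone Cryab. Of the 8 tested lens genes, 4 had positive and 4 negative differences (lowest -0.66, median -0.03), so the higher sum was not shared by the list. Markers of bipolar cells (350 to 384 and 365 to 381) and of endothelial cells and pericytes (28.6 to 29.5 and 27.8 to 29.3) overlapped in sum, with 2 genes called, Flt1 and Slco1a4, both endothelial and higher in KO. Of the 13 tested genes of endothelial cells and pericytes, 6 had positive and 7 negative differences (lowest -0.63, median -0.05). Without overlap, 3 lay above and 3 below WT, as did 6.05% and 11.4% of all tested probes. Each marker of rods, cones, Mueller glia and pigment epithelium was well above background on at least 1 array, and the lists of Mueller glia and pigment epithelium share a gene. The part of these shifts in Hk2, Nxnl1, Nxnl2, Pygl and the other values above was not tested. In the study, KO retinas had more apoptotic photoreceptors and a thinner outer nuclear layer than heterozygous ones before 2 weeks of age. In these whole retina arrays, fewer cells of a type and less RNA per cell cannot be told apart.

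The 8 arrays had 33117 to 36373 probes well above background and 75th percentile signals of 638 to 738, and no spot was saturated (0). The slide has 2 rows of arrays, 1 for each genotype, so row and genotype cannot be told apart. Lpcat1 itself was at -0.43 to -0.38 in WT and -0.92 to -0.78 in KO, at 72.5% of WT (difference -0.46, limma adjusted p = 0.00360). The position of its probe relative to the deletion is not given in the sources used here.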

How the data were processed

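Whole retina RNA of 4 WT and 4 KO samples was hybridised by the authors in 1 colour to Agilent mouse arrays (design build mm9) and quantified with Feature Extraction 10.7.1.1. Per the file headers, the scanner files give intensity on a linear scale, background-subtracted and not scaled between arrays. The deposited series table holds the authors' log2 values after a 75th percentile shift in GeneSpring, and served as an alternative. The number of arrays limits the precision.

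The log2 of the processed signal was shifted by the 75th percentile of the 59305 non-control spots of each array. Outlier spots (86 to 147 per array) were left out, and repeated spots averaged. A probe entered the tests if all 4 arrays of a genotype, or of both, had it well above background (33975). RefSeq names came by transcript accession (26413 of 55681 probes named), and the brightest probe over all 8 arrays stood for a gene. The genotype effect was fitted with limma 3.58.1 (R 4.3.3) with no covariate, and p-values were adjusted by Benjamini-Hochberg over every probe in the fit. On simulated data the fit called 117 of 150 probes changed by at least 0.5, and 5 unchanged probes. It called 16 of 50 probes changed by 0.3, so most changes of that size were missed. Isoform ratios were tested by exact permutation (two-sided, scipy 1.17.1). All members are named, those called and the paired isoforms with every array, and genes of other lists only where called. Further members whose brightest probe did not overlap are given as ranges. The members and lists were chosen with earlier results of these data known. Alternatives covered scaling, background correction, filters, tests, thresholds, probe choice, the replicate number as a block and each array left out. Spot means were not used here, so normexp ran on spot medians, and no slide block was fitted because all arrays shared 1 slide and 1 scan. Every column with values of a sample was mapped to its sample (0 left over).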

Additional observations from a re-analysis of the deposited data

Results flagged for a closer look

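In 6 of 92 groups of 4 arrays, 1 array stood apart from the other 3 by a gap above Dixon's limit, where chance gives about 1 in 20, or 4.6 groups. KO 1 was low for Hk2, at 0.49 against 0.76 to 0.78 in the other KO arrays. WT 1 was low for Slc2a1 (3.86 against 3.99 to 4.01), Pkm (7.17 against 7.23 to 7.24) and Bsg (4.25 against 4.40 to 4.43). WT 4 was low for Ldha, at 8.20 against 8.38 to 8.39. KO 3 was low for the pigment epithelium transporter Slc16a8, at -0.52 against -0.17 to -0.11.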

How the results depend on the processing

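The number of called member probes, 1 with the settings of the report, was 0 with a median shift, with no filter on dim probes, with the methods' t-test and with a fold change over 1.5. It was 4 without a minimum fold and 2 (Hk2 and Pfkfb3) at an adjusted p under 0.5, and from 0 to 2 with 1 array left out. Hk2 kept its direction in all settings (0.32 to 0.42), and its adjusted p was 0.0809 with the median shift, 0.102 without the filter and 0.0555 with the methods' t-test. It stayed called under 8 other alternatives. The called genes of the pathway lists, 7 in the report, numbered 1 without the filter (Slc2a4) and from 2 to 9 with 1 array left out. All-probe calls, 993 in the report, were 246 without the filter and 391 to 1183 with 1 array left out.

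With the replicate number as a block, 0 member probes, 3 pathway genes (Nxnl1, Pygl and Slc2a4) and 395 of all probes were called, and Hk2 had an adjusted p of 0.0534. Same-numbered samples deviated together with r of 0.25, 0.07, 0.04 and 0.11, and differently numbered ones with r from -0.20 to 0.06. For each KO array the same-numbered WT array had the highest r. The labels name the numbers only as replicates, so the main fit left them out. Whether they pair the samples was not settled. The median over members ran from -0.00 (normexp) to 0.07 (cyclic loess, added after seeing the data). With the mean of all probes of a gene, the adjusted p of Hk2/Hk1, Ldha/Ldhb, Eno2/Eno1 and Pfkfb2/Pfkfb3 was 0.05, at the limit and not under it. Of 1115 alternative values, 979 kept direction and side of the threshold. The cause of the lost calls was not tested.

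The sign turned in 49 values of 14 member genes, none called and none over 0.071 in size. With quantile normalization these were Slc2a1 0.022, Pfkl 0.030, Pfkfb4 0.0093, Eno2 0.071, Ldha 0.062, Slc16a3 0.011 and Bsg 0.039. With the 75th percentile taken over probes that every array detected, they were Slc2a1 0.00037, Pfkl 0.016, Pfkfb4 0.012, Eno2 0.0080 and Bsg 0.0072. With cyclic loess they were Slc2a1 0.028, Pfkl 0.032, Pfkfb4 0.016, Eno2 0.059, Ldha 0.014, Slc16a3 0.014 and Bsg 0.040. With a median shift they were Pfkl 0.0073 and Pfkfb4 0.0033. With normexp they were Aldoa -0.0028, Gapdh -0.025 and Pgam1 -0.057. With the authors' values they were Pfkl 0.00893, Pfkfb4 0.00502, Eno2 0.00099 and Bsg 0.00026. The mean of all Gapdh probes was -0.057. With 1 array left out, the sign turned for Hk1 (-0.0083 to 0.064), Pfkl (-0.049 to 0.063), Pfkfb4 (-0.026 to 0.0066), Gapdh (-0.068 to 0.053), Pgam1 (-0.018 to 0.043), Eno2 (-0.042 to 0.029), Slc16a1 (-0.13 to 0.021), Slc16a8 (-0.12 to 0.058), Bsg (-0.053 to 0.035) and Pdk3 (-0.086 to 0.010).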
